A study of Homo sapiens with 4 samples.

Results

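The RAB GTPases are the largest branch of the Ras superfamily of small GTPases and give each membrane compartment of the cell its own molecular address. A RAB protein is switched on when an exchange factor loads it with GTP, is switched off when a GTPase activating protein makes it hydrolyse that GTP, and in the GTP form recruits effectors such as tethers, motors and sorting adaptors. C-terminal geranylgeranyl lipids hold the protein on the membrane, and escort proteins carry the inactive form through the cytosol. In secretory epithelia such as the prostate, RAB proteins act in granule release, in traffic to the apical surface and in the uptake and recycling of receptors.

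The members were chosen by symbol from the table of gene counts: RAB followed by a number, with an optional letter or letter and number. This rule found 63 of the 20332 genes in the table and leaves out regulators and effectors whose names begin in the same way. The family was put forward for description with results of this same comparison known, the lack of RAB25 counts in LN-35 among them, so the values of its members are given as a description of these libraries and no p-value is given for a member.

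RNA-seq was performed on LN-35 cells (2 libraries) and on parental LNCaP cells (2 libraries), a human prostate cancer line that responds to androgen. LN-35 cells are an LNCaP subline that the study obtained by stepwise increase of enzalutamide, a drug used against prostate cancer; the labels give them as the line LNCaP-resistance, with the genotype resistance cells and treatment with enzalutamide, and they give the parental cells as genotype WT with no treatment named. The labels put all cells in RPMI medium with fetal bovine serum, whereas the study's methods describe charcoal-stripped serum for the resistant cells, and none of these sources states whether the drug was still present when RNA was taken. Both lines descend from 1 parental line, and separate cultures per library are not stated, so the spread between libraries may be technical.

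Library totals were 12225169 and 12892069 estimated counts in LN-35 and 15333715 and 13598449 in LNCaP. Levels are given as CPM, counts per 1e6 counts after TMM scaling, which evens out differences in library composition. The libraries of a line correlated at 0.985 in LN-35 and 0.987 in LNCaP (Pearson's r of log2 CPM across genes, which are not independent replicates), against 0.713 to 0.718 between lines. Transcripts of the mitochondrial genome made up 13.8% and 14.78% of counts in LN-35 against 9.53% and 9.39% in LNCaP, and the part of this shift in the values below was not tested. Of the 4 prostate luminal markers reported here, which are part of a longer list, KLK2, KLK3 and TMPRSS2 were called lower in LN-35 and FOLH1 was not called. KLK3, the prostate-specific antigen, had 6.33 and 5.95 CPM in LN-35 and 520.0 and 487.9 CPM in LNCaP, and these 4 markers summed to 1397 and 1407 CPM in LN-35 and 2598 and 2486 CPM in LNCaP. Most of the LN-35 sum was FOLH1, at 1348 and 1365 CPM. Fibroblast markers (4 genes) summed to 32.9 to 38.8 CPM in LN-35 and 36.4 to 44.8 CPM in LNCaP, most of it COL1A1, which was not called. COL3A1 was called higher, at 0.999 and 2.25 CPM in LN-35 and 0.317 and 0.430 CPM in LNCaP. Leukocyte markers (3 genes) summed to at most 0.483 CPM in any library with CD3E at 0 in each. Endothelial markers (3 genes) summed to 0.333 and 0.804 CPM in LN-35 against 5.65 and 6.66 CPM in LNCaP with CDH5 at 0 in each. Nearly all of the LNCaP sum was VWF, at 5.52 and 6.66 CPM, which was called lower in LN-35. CD44, which marks other prostate cancer lines, had 969 and 937 counts in LN-35 and 1 and 2 counts in LNCaP, and with VIM and CAV1 it summed to 118.0 and 114.8 CPM in LN-35 and 25.3 and 30.4 CPM in LNCaP. Most of that gap was CD44. VIM had 37.0 and 38.1 CPM in LN-35 and 25.1 and 30.2 CPM in LNCaP, and CAV1 had too few counts to be tested. The part of these markers in the RAB values was not tested.

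The promoter windows of 4 RAB genes are shown, chosen after the values were seen: RAB3C, RAB39A and RAB25 had at most 1 count per library in 1 of the lines, and RAB3B had the largest log2 rise among members above 20 CPM in LN-35. RefSeq windows (GRCh38.p14) run 5′ to 3′ along the gene's strand, with 250 bases before the start and 50 bases from it, and 50 of the 63 members had one. RAB3B lies on the minus strand at chr1:51990651-51990950, RAB3C on the plus strand at chr5:58582825-58583124, RAB39A on the plus strand at chr11:107928198-107928497 and RAB25 on the plus strand at chr1:156060910-156061209. Capitals mark matches to 5 short motifs searched on both strands: TATAAA for the TATA box, the letters CCAAT for the box of that name, GGGCGG for the GC box of SP1 and its relatives, CACCTG for the E-box of SNAI and ZEB repressors, and TGACGTCA for the cyclic AMP response element.
RAB3B: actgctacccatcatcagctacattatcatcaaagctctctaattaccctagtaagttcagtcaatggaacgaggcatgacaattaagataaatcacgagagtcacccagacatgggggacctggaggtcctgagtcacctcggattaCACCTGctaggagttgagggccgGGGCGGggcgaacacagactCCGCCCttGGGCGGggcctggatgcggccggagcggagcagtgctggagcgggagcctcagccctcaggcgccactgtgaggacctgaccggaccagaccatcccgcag
RAB3C: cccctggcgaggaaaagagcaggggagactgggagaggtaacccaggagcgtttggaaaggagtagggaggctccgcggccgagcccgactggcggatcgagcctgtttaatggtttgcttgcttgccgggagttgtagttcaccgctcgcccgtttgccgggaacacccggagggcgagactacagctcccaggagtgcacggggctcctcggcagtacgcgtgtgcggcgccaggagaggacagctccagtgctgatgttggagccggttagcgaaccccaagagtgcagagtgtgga
RAB39A: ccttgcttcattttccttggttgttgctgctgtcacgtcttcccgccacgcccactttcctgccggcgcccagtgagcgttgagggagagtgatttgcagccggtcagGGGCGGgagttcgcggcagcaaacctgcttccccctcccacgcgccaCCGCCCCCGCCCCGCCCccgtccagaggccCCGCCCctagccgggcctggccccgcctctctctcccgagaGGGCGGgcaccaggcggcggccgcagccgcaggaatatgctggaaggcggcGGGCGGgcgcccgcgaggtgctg
RAB25: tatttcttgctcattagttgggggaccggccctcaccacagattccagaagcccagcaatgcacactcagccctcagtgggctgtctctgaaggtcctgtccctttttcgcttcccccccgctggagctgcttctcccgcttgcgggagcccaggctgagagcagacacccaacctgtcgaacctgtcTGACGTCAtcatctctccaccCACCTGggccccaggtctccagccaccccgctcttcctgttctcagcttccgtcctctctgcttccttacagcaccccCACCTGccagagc
The RAB3B window held 3 GC boxes and 1 E-box. The RAB3C window held none of the 5 motifs. The RAB39A window held 7 GC boxes, of which a neighbouring pair shared 1 base. The RAB25 window held 2 E-boxes and 1 cyclic AMP response element, and no GC box. Its 9 CpG dinucleotides compare with 31 in RAB39A, 23 in RAB3C and 15 in RAB3B, and with a median of 25 over the 50 RAB windows and 14 over all 27305 genes with a window.

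Across the family the windows were GC-rich, with a median GC content of 65.0% against 58.3% over all genes with a window. GC boxes lay in 39 of 50 RAB windows (78.0%) and in 44.6% of all windows. The CCAAT box lay in 13 of 50 RAB windows and 35.7% of all, and the E-box in 18.0% and 20.6%. The TATA box lay in 8.0% of RAB windows and 11.95% of all, and the cyclic AMP response element in 2.0% of each. The comparison set of 27305 genes is larger than the 20332 genes of the count table and was not limited to protein-coding genes. All RAB members are protein-coding, so the sets are unlike, and the part of gene type in these gaps was not tested. A match is a description of the letters in the window, not a binding site. The first 20 bases of a GENCODE transcript were found on the printed strand in 48 of 50 windows and on the other strand in none, and they began exactly at the RefSeq start in 12. Among the 4 printed windows, that of RAB39A held no GENCODE start, and the GENCODE start of RAB25 was the RefSeq start. The RAB39A window ends at base 107928497, before the GENCODE gene start at 107928503. The nearest GENCODE start lay at −64 bases from the RefSeq start for RAB3B and at −35 for RAB3C. The RAB3B GC boxes at −59 and −51 thus lie past that GENCODE start.

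Of the 63 RAB genes, 57 passed the filter on low counts. RAB34, RAB38, RAB41, RAB42, RAB44 and RAB7B did not, with at most 0.749 CPM in any library. In the edgeR fit across all tested genes, a gene was called where its Benjamini-Hochberg adjusted p was under 0.05, and each log2 fold change sets LN-35 over LNCaP and carries the standard error (SE) of that fit. By this rule 22 RAB genes were called higher in LN-35, 26 were called lower and 9 were not called. Over all 13744 tested genes, 71.8% were called, 36.4% as higher and 35.5% as lower, so most tested genes were called in this comparison, and nothing is read from the members' share of 84.2%. At least 2-fold differences were called higher for 10 members and lower for 9, beside 18.4% and 14.2% of all tested genes. The median log2 fold change was −0.08 over the tested members and −0.01 over all genes. All 48 called members had the same direction in the libraries labelled repeat 1 and in those labelled repeat 2. This is no separate support, because the calls were made from these same libraries. With 2 libraries per line, a lack of overlap between lines is a weak mark. It was also seen in members that were not called, such as RAB6A and RAB8A. Its share over all tested genes was not counted, so nothing is read from it where it is given below. In bulk RNA, fewer cells of a type and less RNA per cell cannot be told apart.

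**Figure D1:**
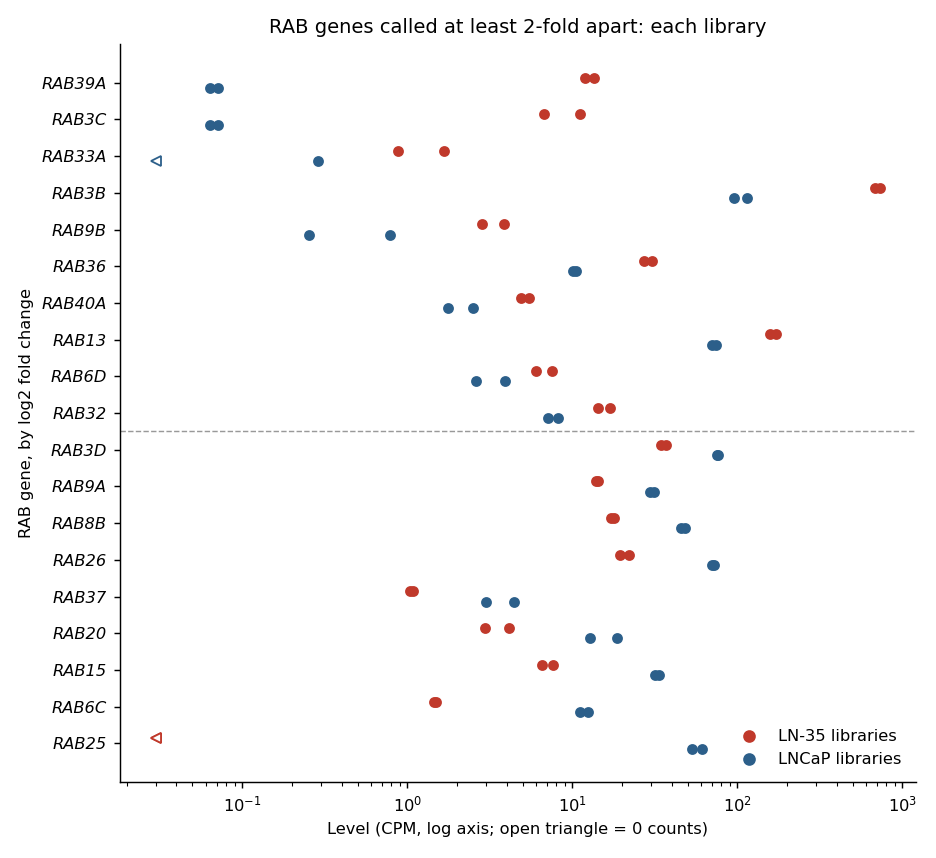
Levels of the 19 RAB genes called at least 2-fold apart, in CPM on a log axis, with 1 point per library for LN-35 (red) and LNCaP (blue) and open triangles for libraries with 0 counts. RAB25 had 0 counts in both LN-35 libraries, whereas RAB39A and RAB3C had 1 count in each LNCaP library. RAB3B reached 680 and 731 CPM in LN-35.

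The RAB3 and RAB27 groups, RAB26 and RAB37 act in regulated exocytosis, the release of stored granules. Of these 8 genes 2 were called higher in LN-35 and 5 lower, with a median log2 fold change of −0.61 beside −0.01 over all genes. For this and each later step, 36.4% of all tested genes were called higher and 35.5% lower. The steps hold few genes and were not tested against that share. RAB3B, a RAB3 form known from secretory epithelial and pituitary cells, had 680 and 731 CPM in LN-35 and 114 and 95.1 CPM in LNCaP. Both LN-35 libraries lay above both LNCaP libraries, a 6.71-fold rise (log2 fold change 2.75, SE 0.09). RAB3C, best known from neurons, had 6.74 and 11.1 CPM in LN-35, or 81 and 138 counts, against 1 count in each LNCaP library. The ratio of its normalized counts was 133, with an exact 95% counting interval of 36.4 to 1106 that covers counting error only.

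No other exocytosis gene was called higher. RAB26, which marks secretory granules of acinar cells, had 22.2 and 19.5 CPM in LN-35 and 71.9 and 69.9 CPM in LNCaP. Its level was 3.41-fold lower in LN-35 (log2 fold change −1.77, SE 0.10). RAB3D, the RAB3 form of exocrine granules, had 36.8 and 34.5 CPM in LN-35 and 76.5 and 75.0 CPM in LNCaP, with no overlap between the lines (log2 fold change −1.09, SE 0.09). RAB37, a relative of RAB26 found on secretory granules, had 1.08 and 1.05 CPM in LN-35 and 4.44 and 3.01 CPM in LNCaP. RAB3A, the synaptic vesicle form, had a log2 fold change of −0.49 (SE 0.12), and RAB27B, which acts in granule and exosome release, one of −0.72 (SE 0.18). RAB27A, its partner in exosome release, was not called, at 20.8 and 17.1 CPM in LN-35 and 17.0 and 17.1 CPM in LNCaP.

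In recycling endosomes, RAB proteins return internalised receptors to the cell surface. Of 9 genes of this step 4 were called higher in LN-35 and 3 lower. RAB25, the epithelial member of the RAB11 group that directs traffic to the apical surface, had 0 counts in both LN-35 libraries and 52.8 and 60.8 CPM, or 833 and 849 counts, in LNCaP. Set against the floor of 3 counts over the LN-35 libraries (0.123 CPM), it was at least 461-fold lower in LN-35. RAB15, which acts in receptor recycling, had 7.66 and 6.59 CPM in LN-35 and 33.7 and 31.5 CPM in LNCaP (log2 fold change −2.20, SE 0.15). Neither gene had an LN-35 library that reached its LNCaP libraries.

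The widely expressed relatives of RAB25 stood much closer between the lines. RAB11A, the common RAB of recycling endosomes, had a log2 fold change of −0.44 (SE 0.07). RAB11B, close to it in sequence, had one of 0.22 (SE 0.09), and its call was lost without LN-35 replicate 1 (0.14) and without LNCaP replicate 1 (0.14). RAB4A, which drives fast recycling from early endosomes, was called higher by 0.58 (SE 0.08). RAB14, which links Golgi and endosomes, was called higher by 0.24 (SE 0.07), a call lost without LN-35 replicate 2 (0.20). RAB17, an epithelial RAB of transcytosis, was called higher by 0.34 (SE 0.10), a call lost without LNCaP replicate 2 (0.24). RAB35, which acts at the plasma membrane, and RAB4B were not called; RAB4B was called higher without LN-35 replicate 2 (log2 fold change 0.54, against 0.32 with all libraries).

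Early endosomes receive cargo taken up at the surface, and RAB5 is the RAB that drives their fusion. Of 7 genes of this step 2 were called higher in LN-35 and 4 lower. The RAB5 forms split: RAB5B had a log2 fold change of 0.28 (SE 0.07), RAB5C one of −0.49 (SE 0.07) and RAB5A one of −0.22 (SE 0.08). The call of RAB5A was lost without LN-35 replicate 1 (−0.18) and without LNCaP replicate 2 (−0.18). RAB20, a RAB of endosomes and phagosomes, had 4.16 and 2.98 CPM in LN-35 and 12.8 and 18.6 CPM in LNCaP. It had the widest gap of the early endosome genes (log2 fold change −2.13, SE 0.24), and its lines did not overlap. RAB31, a RAB5 relative, was called lower by a log2 fold change of −0.78 (SE 0.17). RAB22A, another RAB5 relative, was called higher by 0.25 (SE 0.09), and the call was lost without LN-35 replicate 2 (0.17) and without LNCaP replicate 2 (0.17), which left 1 gene of the step called higher. RAB21, known for integrin traffic, was not called.

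Late endosomes and lysosomes degrade cargo, and RAB7A is the main RAB of this step. Of the 5 tested genes of 6, 1 was called higher in LN-35 and 2 lower. RAB9A, which acts in the return of mannose 6-phosphate receptors to the Golgi, had 14.0 and 14.3 CPM in LN-35 and 31.1 and 29.6 CPM in LNCaP (log2 fold change −1.10, SE 0.13). Its relative RAB9B had 2.83 and 3.86 CPM in LN-35 and 0.254 and 0.788 CPM in LNCaP (log2 fold change 2.70, SE 0.53). RAB9A was thus called lower and RAB9B, at low levels, higher. RAB12, which acts in receptor degradation, was called lower by a log2 fold change of −0.42 (SE 0.09). RAB24, a RAB of autophagy, was not called. RAB7A was not called in the main fit (log2 fold change −0.08). It was called lower with library totals alone (−0.16) and without LNCaP replicate 1 (−0.15).

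RAB32, RAB38 and RAB29 act on lysosome-related organelles such as melanosomes. RAB32 had 14.2 and 17.0 CPM in LN-35 and 7.17 and 8.17 CPM in LNCaP, with no overlap (log2 fold change 1.03, SE 0.18). RAB29 was called lower by a log2 fold change of −0.62 (SE 0.08). RAB38, the melanocyte partner of RAB32, had 0 counts in both LN-35 libraries and 4 counts in all in LNCaP.

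The ER and Golgi step was the most numerous, with 19 genes of which 17 were tested, 8 called higher and 7 lower in LN-35. RAB39A, also known from phagosomes and autophagy, had 11.9 and 13.6 CPM in LN-35, or 143 and 169 counts, against 1 count in each LNCaP library. The ratio of its normalized counts was 189.7, with an exact 95% counting interval of 52.1 to 1573. RAB36, a Golgi-associated RAB that positions late endosomes, had 30.6 and 27.3 CPM in LN-35 and 10.5 and 10.1 CPM in LNCaP, a 2.80-fold rise (log2 fold change 1.49, SE 0.14). Both LN-35 libraries lay well above both LNCaP libraries for these genes.

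RAB33A, a brain-enriched RAB, had 20 and 11 counts in LN-35 and 0 and 4 counts in LNCaP, and its call was lost without LN-35 replicate 1 (log2 fold change 2.63) and without LNCaP replicate 1 (2.11). RAB33B, which binds the autophagy protein ATG16L1, was called higher by 0.57 (SE 0.16), a call lost without LN-35 replicate 2 (0.39). RAB19 was called higher by 0.91 (SE 0.24) and RAB1A, which drives ER to Golgi transport, by 0.41 (SE 0.07). RAB39B, the relative of RAB39A, was called higher by 0.32 (SE 0.10), a call lost without LNCaP replicate 2 (0.18).

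Other ER and Golgi genes were called lower. RAB43 had a log2 fold change of −0.85 (SE 0.12), RAB1B one of −0.29 (SE 0.07) and RAB18, known from the ER and lipid droplets, one of −0.26 (SE 0.07). Several small differences lost their call when 1 library was left out. RAB30 (log2 fold change −0.33) was not called without LNCaP replicate 2 (−0.20) or without LN-35 replicate 2 (−0.24), and RAB6B (−0.32) was not called without LNCaP replicate 2 (−0.26). RAB2A (−0.17) was not called without LN-35 replicate 1 (−0.17), LN-35 replicate 2 (−0.15) or LNCaP replicate 2 (−0.13), and it was not called with the replicate block. RAB2B, which acts in Golgi structure like RAB2A, was not called. Without LNCaP replicate 2, 4 genes of this step were called lower.

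The RAB6 group needs care, because RAB6C and RAB6D are retrocopies close in sequence to RAB6A, and all members of the group had fractional counts in each library. RAB6A, which drives retrograde traffic through the Golgi, was not called (log2 fold change 0.15, SE 0.07). It was called higher with DESeq2 size factors (0.17), in the DESeq2 Wald test (0.17) and without LNCaP replicate 2 (0.20). RAB6C had 1.498 and 1.448 CPM in LN-35 and 11.1 and 12.5 CPM in LNCaP (log2 fold change −2.99, SE 0.27). RAB6D had 7.49 and 6.03 CPM in LN-35 and 2.60 and 3.94 CPM in LNCaP (log2 fold change 1.05, SE 0.29). Reads that fit several copies may have been divided between them, so the levels of RAB6C and RAB6D are uncertain.

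RAB8, RAB10 and RAB13 carry vesicles from the Golgi to the plasma membrane, and RAB23 and RAB28 act at the cilium. Of these 6 genes 3 were called higher in LN-35 and 2 lower. RAB13, which acts at tight junctions of epithelia, had 171 and 159 CPM in LN-35 and 70.5 and 74.4 CPM in LNCaP, a 2.27-fold rise (log2 fold change 1.18, SE 0.08). RAB8B, an apical and ciliary RAB, had 17.8 and 17.2 CPM in LN-35 and 45.6 and 48.5 CPM in LNCaP, 2.68-fold lower in LN-35 (log2 fold change −1.42, SE 0.11). RAB10, known for insulin-regulated glucose transporter traffic, was called lower by a log2 fold change of −0.54 (SE 0.07), with no overlap between the lines. RAB28 was called higher by 0.55 (SE 0.14). RAB23, a negative regulator of Hedgehog signalling in the mouse, was called higher by 0.41 (SE 0.16), a call lost without LN-35 replicate 2 (0.38) and without LNCaP replicate 2 (0.31). RAB8A, the close relative of RAB8B, was not called (−0.16, SE 0.10). It was called lower with library totals alone (−0.24) and without LNCaP replicate 2 (−0.25).

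The RAB40 proteins carry a SOCS box and act in ubiquitin ligases. RAB40A had 5.49 and 4.91 CPM in LN-35 and 1.78 and 2.51 CPM in LNCaP (log2 fold change 1.28, SE 0.33). RAB40B was called lower by a log2 fold change of −0.80 (SE 0.16). RAB40C was called lower by −0.42 (SE 0.12), a call lost without LN-35 replicate 1 (−0.27). The 3 genes of this group therefore included both directions.

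**Figure D2:**
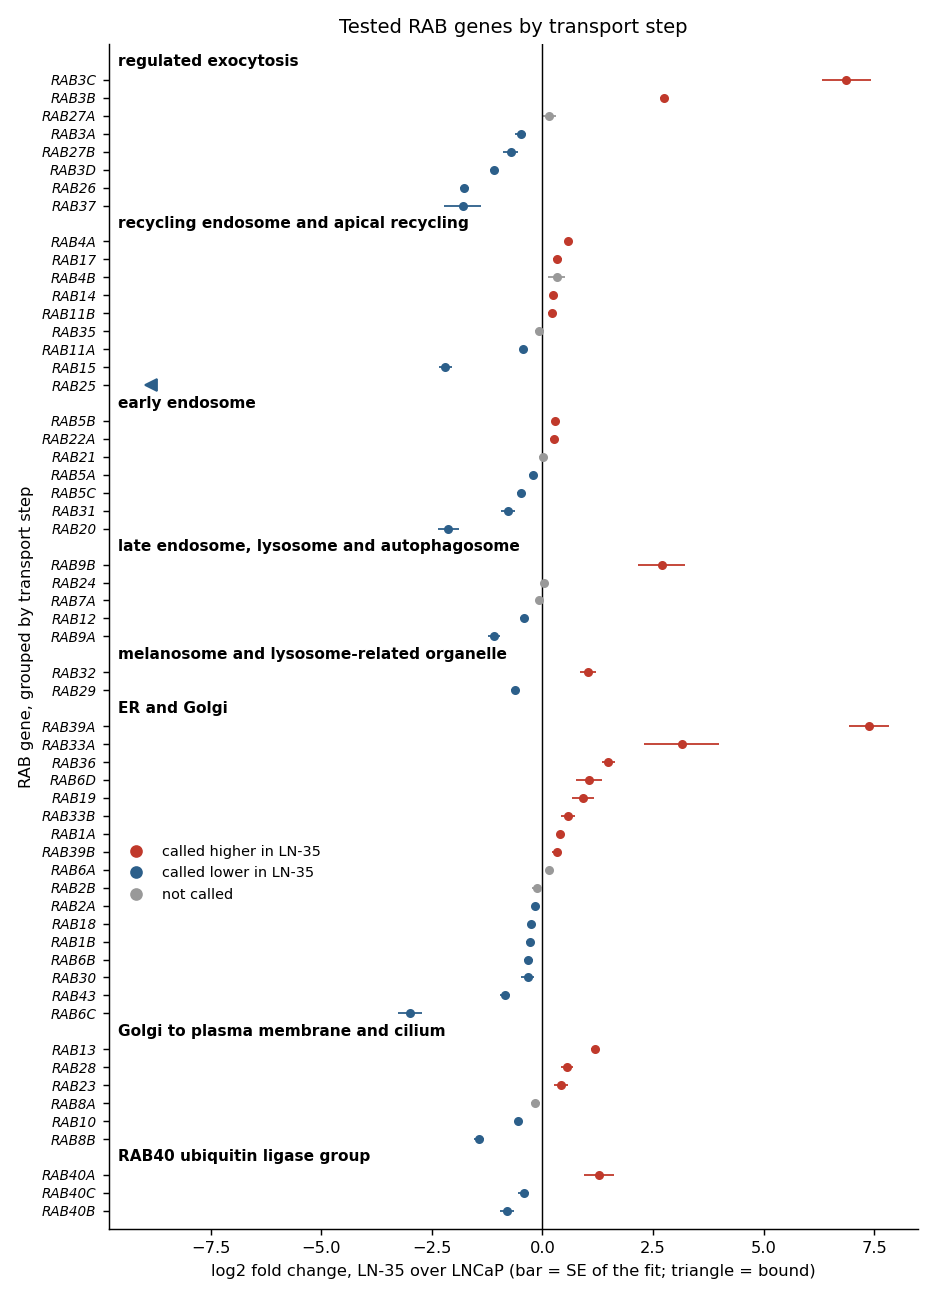
Log2 fold change (LN-35 over LNCaP) of the 57 tested RAB genes, grouped by transport step, with bars for the SE of the edgeR fit and colours for called higher (red), called lower (blue) and not called (grey). RAB25 is drawn as a triangle at its bound of at least 461-fold lower. Each step with more than 3 genes held calls in both directions.

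To compare levels between genes, CPM were divided by merged exon length in kb (CPM per kb). RAB7A was the highest RAB transcript of both lines, with levels per kb of 100.6 and 105.3 in LN-35 and 103.6 and 114.1 in LNCaP. In LN-35 the next levels per kb were RAB1B (73.9 and 70.0), RAB10 (69.3 and 70.7) and RAB6A (67.7 and 69.6), and these neighbours overlapped between libraries. RAB13 and RAB3B followed in LN-35, with per-kb levels of 62.0 and 57.6 for RAB13 and 52.9 and 57.0 for RAB3B. In LNCaP the same genes ranked 15th and 31st.

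RAB10 was second in LNCaP, with per-kb levels of 69.3 and 70.7 in LN-35 and 99.6 and 104.5 in LNCaP, where it overlapped RAB7A. RAB25 ranked 8th in LNCaP, with per-kb levels of 0 in both LN-35 libraries and 31.1 and 35.8 in LNCaP. RAB5C had per-kb levels of 35.9 and 39.0 in LN-35 and 53.0 and 52.5 in LNCaP, and RAB11A had 31.5 and 31.8 in LN-35 and 41.8 and 43.8 in LNCaP. RAB1A had 50.3 and 52.4 in LN-35 and 38.9 and 38.4 in LNCaP, and RAB5B had 40.02 and 38.46 in LN-35 and 32.1 and 32.6 in LNCaP. With the length of the longest coding transcript instead, a choice made after the data were seen, RAB13 ranked 2nd in LN-35 and 6th in LNCaP, and RAB3B ranked 7th in LN-35 and 35th in LNCaP.

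**Figure D3:**
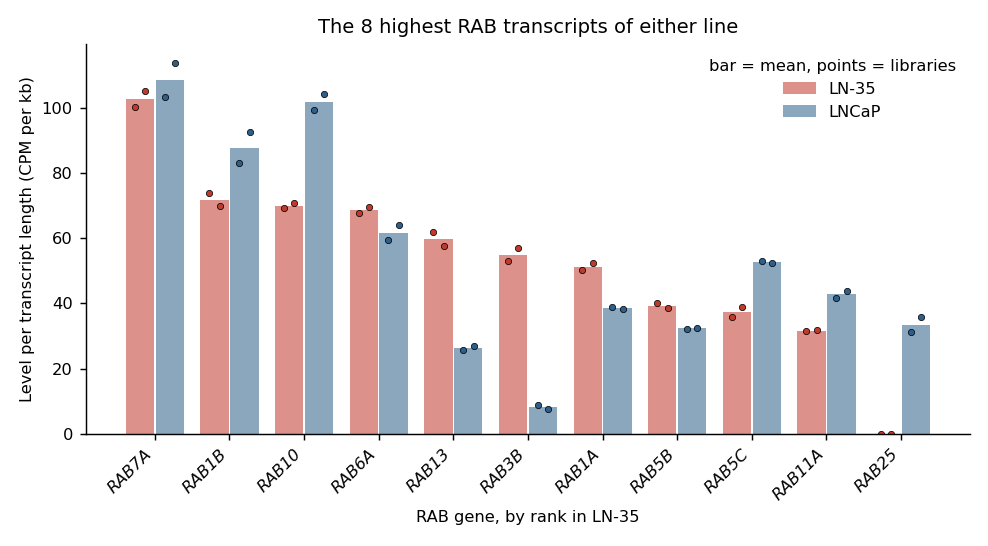
Level per transcript length (CPM per kb) of the 11 RAB genes among the 8 highest of either line, with bars for the mean of 2 libraries and points for each library, LN-35 left of LNCaP. RAB3B stands near 55 in LN-35 and near 8 in LNCaP, and RAB25 is at 0 in LN-35.

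The order of the lines in summed RAB level depended on the scale. The summed counts were 0.418% and 0.417% of all counts in LN-35 and 0.405% and 0.417% in LNCaP. After TMM scaling the sums were 4255 and 4323 CPM in LN-35 and 3936 and 4062 CPM in LNCaP. RAB3B alone held 680 and 731 CPM of the LN-35 sums and 114 and 95.1 CPM of the LNCaP sums. This gap is wider than the gap between the summed CPM of the lines. Per kb of merged exon length the sums were 1017 and 1023 CPM per kb in LN-35 and 1051 and 1096 CPM per kb in LNCaP. Of the summed per-kb level of the 63 genes, RAB3B took 5.21% and 5.57% in LN-35 and 0.846% and 0.675% in LNCaP. The exocytosis genes together took 8.62% and 8.83% in LN-35 and 7.44% and 6.77% in LNCaP. With the longest coding transcript as the length, they took 7.42% and 7.55% in LN-35 and 7.37% and 6.74% in LNCaP, so the gap is narrow on that scale.

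Within groups of close relatives, the share of the summed per-kb level showed which form was highest for its transcript length. In the RAB3 group RAB3B made up 71.9% and 73.2% in LN-35 and 20.4% and 18.4% in LNCaP. RAB3D made up 11.3% and 10.0% in LN-35 and 39.8% and 42.2% in LNCaP, and RAB3A 15.8% and 15.3% in LN-35 and 39.7% and 39.4% in LNCaP. Per kb, the leading form of the group was thus RAB3B in LN-35 and RAB3D with RAB3A in LNCaP. RAB3C stayed at or below 1.48% in every library. This order rests on the division by length, as RAB3B has the longest merged exons of the group (12844 bases). In CPM, RAB3B was the highest of the group in LNCaP too, at 114 and 95.1 against 76.5 and 75.0 for RAB3D.

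In the RAB11 group RAB25 made up none of the level in LN-35 and 32.0% and 33.6% in LNCaP. RAB11B made up 50.3% and 46.9% in LN-35 and 25.0% and 25.3% in LNCaP, and RAB11A 49.7% and 53.1% in LN-35 and 43.0% and 41.1% in LNCaP. Both shares were larger in LN-35, where RAB25 was at 0, although the log2 fold change was 0.22 for RAB11B and −0.44 for RAB11A. RAB39A made up 27.9% and 29.3% of the RAB39 pair in LN-35 and 0.23% and 0.31% in LNCaP. RAB8A made up 72.3% and 74.0% of the RAB8 pair in LN-35 and 55.5% and 50.7% in LNCaP. RAB8A itself was not called, and RAB8B was called lower. Set against RAB20, RAB17 made up 77.4% and 82.8% in LN-35 and 48.5% and 36.2% in LNCaP. In contrast, RAB2A took 69.5% and 73.2% of the RAB2 pair in LN-35 and 71.6% and 72.4% in LNCaP, and RAB26 over 97% of its pair with RAB37 in every library. These shares rest on merged exon length. With the longest coding transcript as the length, RAB17 was above RAB20 in LNCaP too. The per-kb levels in LNCaP were then 19.3 and 16.9 for RAB17 and 8.40 and 12.3 for RAB20. For the RAB8 pair in LNCaP they were 20.1 and 17.6 for RAB8A and 9.23 and 9.81 for RAB8B.

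**Figure D4:**
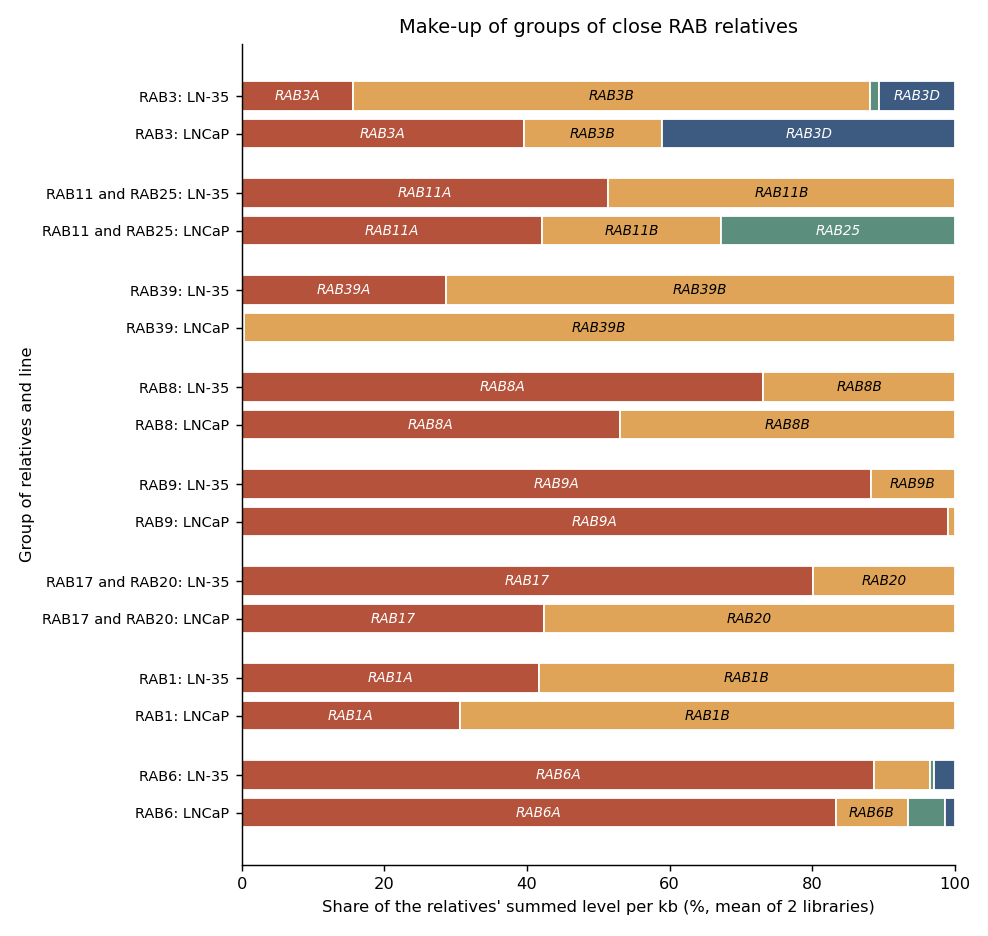
Share (%) of the summed CPM per kb taken by each gene in 8 groups of close RAB relatives, as the mean of 2 libraries, with LN-35 above LNCaP in each pair of bars and segments under 9% left without a name. RAB3B takes 72.5% of the RAB3 group in LN-35 and 19.4% in LNCaP, and the RAB25 segment (32.8%) is seen in LNCaP.

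Position in the genome bears on how some of these values can be read. Of the 63 genes, 21 overlap another gene of the table, 14 of them on the other strand, and no use of strand in counting is stated, so such reads cannot be told apart. RAB14, for example, overlaps GSN on the other strand, which was called higher by a log2 fold change of 1.97. RAB3D overlaps TMEM205 on its own strand. TMEM205 had 70.6 and 70.9 CPM in LN-35 and 125.4 and 134.6 CPM in LNCaP (log2 fold change −0.88, called lower). The part of this overlap in the RAB3D values was not tested. RAB43 shares its strand with the read-through gene ISY1-RAB43, and RAB13 and RAB3B had fractional counts in every library, so their values may include divided reads. RAB25, RAB39A, RAB3C and RAB3B overlap no other gene of the table. RAB25 (chromosome 1, 156061160 to 156070514) has LAMTOR2 2650 bases to its left, called lower by a log2 fold change of −1.22, and MEX3A 1499 bases to its right, called higher by 0.59. RAB39A (chromosome 11, 107928503 to 107963482) lies 210 bases from SLC35F2 on the other strand, which was not called, and CUL5, 45251 bases to its right, was called lower by a log2 fold change of −0.23. RAB3C lies on chromosome 5 (58582221 to 58859394), with PDE4D 109644 bases to its right called lower by −0.66 and GAPT 85131 bases to its left at 0 counts in each library. RAB3B lies on chromosome 1 (51907956 to 51990764), where its neighbours NRDC and TXNDC12 were called higher by 0.33 and 0.53.

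The machinery that switches RAB proteins on and off was read from 7 lists of 145 regulators and effectors, of which 141 were tested, 52 called higher in LN-35 and 49 lower, or 71.6% called beside 71.8% of all tested genes. Of 38 tested exchange factors 16 were called higher and 8 lower. DENND6A, which activates RAB14, had 72.3 and 70.6 CPM in LN-35 and 31.3 and 26.3 CPM in LNCaP. RIN2, which activates RAB5, had 0.416 and 0.402 CPM in LN-35 and 6.09 and 12.04 CPM in LNCaP. DENND4B, an activator of RAB10, was called higher by a log2 fold change of 0.92 (SE 0.09), and DENND1A, an activator of RAB35, was called lower by −0.97 (SE 0.11).

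Of 37 GTPase activating proteins 8 were called higher in LN-35 and 18 lower, with a median log2 fold change of −0.23 beside −0.01 over all genes. RAB3GAP2, the noncatalytic subunit of the complex that switches RAB3 off, had 76.3 and 75.4 CPM in LN-35 and 182 and 166 CPM in LNCaP (log2 fold change −1.20, SE 0.08). Its catalytic partner RAB3GAP1, named after its value was seen, had 55.6 and 65.1 CPM in LN-35 and 133 and 135 CPM in LNCaP. Both subunits were called lower in LN-35, without overlap between the lines. TBC1D8 had 152 and 146 CPM in LN-35 and 34.8 and 32.3 CPM in LNCaP, and TBC1D4, which acts on RAB10 in glucose transporter traffic, was called higher by a log2 fold change of 1.32 (SE 0.08). TBC1D30 was called lower by −1.54 (SE 0.11).

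Effectors of RAB3 and RAB27 had wide gaps in both directions, with 7 of 16 tested genes called higher in LN-35 and 6 lower. SYTL2, a synaptotagmin-like protein that docks RAB27 vesicles, had 227 and 252 CPM in LN-35 and 10.0 and 10.5 CPM in LNCaP (log2 fold change 4.54, SE 0.10). MLPH, which links RAB27A to a myosin motor, had 440.0 and 434.9 CPM in LN-35 and 138.0 and 148.5 CPM in LNCaP. RPH3AL, a RAB3 and RAB27 effector of endocrine granules, had 0.666 and 0.402 CPM in LN-35 and 17.9 and 20.6 CPM in LNCaP. EXPH5 was called lower by a log2 fold change of −1.90 (SE 0.14).

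Of 11 effectors of the RAB11 group, 7 were called higher in LN-35 and 3 lower, beside 36.4% higher and 35.5% lower over all tested genes. SH3TC2, known in Schwann cells, had 10.9 and 9.33 CPM in LN-35 and 0.951 and 1.07 CPM in LNCaP, and RAB11FIP3 was called higher by a log2 fold change of 0.80 (SE 0.10). ZFYVE27, also called protrudin, was called lower by −1.21 (SE 0.11), and RAB11FIP1 by −0.51 (SE 0.08). Of 15 effectors of RAB4, RAB5 and RAB7, 1 was called higher in LN-35 and 9 lower. Their median log2 fold change was −0.41, beside −0.01 over all genes, and the difference between these lists was not tested. APPL2, a RAB5 effector of signalling endosomes, had 25.1 and 23.6 CPM in LN-35 and 94.6 and 100.5 CPM in LNCaP. RABEP1, which couples RAB4 and RAB5, was called lower by −0.46 (SE 0.07), and VPS41, a subunit of the lysosomal tether HOPS, was the gene called higher (0.82, SE 0.08).

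Of 16 effectors of RAB6, RAB8 and RAB10, 9 were called higher in LN-35 and 3 lower. EHBP1, which binds RAB8 and RAB10, had 180.0 and 189.0 CPM in LN-35 and 43.5 and 33.2 CPM in LNCaP (log2 fold change 2.26, SE 0.10). OCRL, a phosphoinositide phosphatase, was called higher by 1.24 (SE 0.07). BICD1, a dynein adaptor for RAB6 vesicles, was called lower by −1.56 (SE 0.09), and the golgin GCC2 by −1.19 (SE 0.08). LRRK2, the kinase that phosphorylates RAB8 and RAB10 and is recruited by RAB29, is named after its values were seen: it had 81 and 72 counts in LN-35 and 0 counts in both LNCaP libraries.

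In the prenylation and escort list, 4 of 8 genes were called higher in LN-35 and 2 lower. RABAC1, a prenylated RAB acceptor, had 49.9 and 42.9 CPM in LN-35 and 21.2 and 21.0 CPM in LNCaP. The geranylgeranyl transferase subunits RABGGTA and RABGGTB were called lower by −0.47 (SE 0.11) and −0.31 (SE 0.09), and RABGGTB was not called without LNCaP replicate 2 (−0.16), which left 1 gene of the list called lower.

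**Figure D5:**
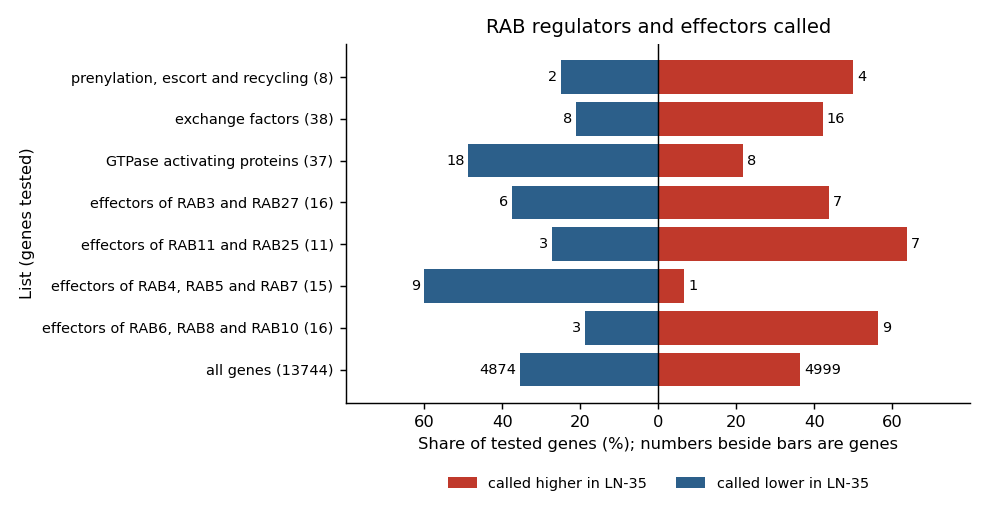
Share of tested genes (%) called higher in LN-35 (red, right) and called lower (blue, left) in 7 lists of RAB regulators and effectors and over all genes, with gene counts beside the bars and the number tested in brackets. The GTPase activating proteins (8 higher, 18 lower) and the effectors of RAB4, RAB5 and RAB7 (1 higher, 9 lower) lie to the left of the bars for all genes.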

How the data were processed

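Total RNA of 2 LN-35 and 2 LNCaP libraries was sequenced, and the authors deposited 1 table of estimated counts per gene, unscaled, made per the processing notes with HISAT2 2.0.5 and featureCounts 1.5.0-p3 on hg38. Between 11.49% and 12.0% of values were fractional, by a step not given in the sources used here, and the tests used whole numbers made by rounding these estimated counts. Symbols and coordinates came from GENCODE release 29 (GRCh38, the same assembly as hg38). Genes were kept by filterByExpr (minimum count 10), scaled with TMM and compared with the two-sided quasi-likelihood test of edgeR 4.0.16 (glmQLFit robust, glmQLFTest, R 4.3.3), with Benjamini-Hochberg adjustment over 13744 genes and calls at an adjusted p under 0.05. Groups without counts were given a floor of 3 counts over their libraries, and intervals and floors cover counting error only, since reads carried no molecular identifiers. Per-library values were given for called members at least 2-fold apart with a group mean of at least 5 CPM, for members at 0 in 1 line, for the 8 highest per kb of either line and for close relatives. In each regulator list up to 2 called genes per direction with the smallest adjusted p and a mean of at least 5 CPM were named. Some genes of the regulator and luminal marker lists are not reported here. The members and lists were chosen with earlier results of these data known.

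The labels carry a batch tag of repeat 1 or 2, which would pair the libraries. Same-numbered libraries did not deviate together (correlation of deviations −0.04 over 10004 genes), and the main design left the pairing out. Replicates were not duplicates of each other (chi-square per degree of freedom 3.22 in LN-35 and 6.26 in LNCaP). The script was tested on simulated data. Alternatives were DESeq2 size factors, library totals alone, no filter, the DESeq2 1.42.0 Wald test, the replicate block, rounding down, each library left out, and, added after seeing the data, another gene length. Tables and plots used Python 3.11.15, pandas 2.3.3, numpy 2.4.6, scipy 1.17.1 and matplotlib 3.10.9.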

Additional observations from a re-analysis of the deposited data

How the results depend on the processing

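The counts of RAB genes called stayed within 1.5 times of their values in the 10 alternatives, at 19 to 23 called higher in LN-35 and 22 to 28 called lower, and their median log2 fold change stayed negative, at −0.158 to −0.005. Over all genes 4523 to 5210 were called higher and 4152 to 5432 lower. Of 570 comparisons of a member with an alternative, 521 kept direction and call, 34 lost the call, 8 gained it and 7 turned in direction, all 7 for genes that were not called. With library totals alone the log2 fold change of RAB21 was −0.0693 and that of RAB24 −0.0333, against 0.0084 and 0.0446 as reported. With each library left out in turn, RAB21 ranged over −0.0508 to 0.0575, RAB24 over −0.0017 to 0.1013, RAB2B over −0.253 to 0.0268 and RAB35 over −0.1474 to 0.0206, turning without LN-35 replicate 2 (all 4 genes) or without LNCaP replicate 1 (RAB21). With the replicate block, 22 RAB genes were called higher and 25 lower, and RAB2A alone changed its call. Of the 48 calls, 35 (14 higher, 21 lower) were kept in every setting. The DESeq2 Wald test called 20 RAB genes higher and 22 lower, with 4 of the ER and Golgi genes called lower where 7 were before. RAB11B, RAB22A and RAB23 lost their call in that test and with library totals alone. RAB5A and RAB6B lost theirs in that test, and RAB2A and RAB30 in that test and with DESeq2 size factors. The members' median minus that of all genes was −0.07 with all libraries and 0.01 without LN-35 replicate 2, so its sign rests on that library. The number of libraries, 2 per line, limits the precision of small changes.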
